A study of Mus musculus with 8 samples.

Results

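Mouse embryonic fibroblasts lacking both Tbk1 and Ikbke (genotype Tbk1-/- Ikbke-/-, strain C57BL/6 x 129Ola) were compared 4 h after transfection with B-DNA and 4 h after mock transfection. B-DNA is double-stranded DNA in its usual helical form, here the synthetic polymer poly(dA-dT)-poly(dT-dA). The pair consisted of 2 of the 8 arrays of the series, chosen by genotype label alone. The other 6 arrays held a mock and a B-DNA array of wild-type cells (WT), of Tbk1-/- cells with intact Ikbke and of Ikbke-/- cells with intact Tbk1, all at 4 h. With 1 array per genotype and treatment, no value of the pair has a replicate error and no p-value can be given for the pair alone. The labels do not say how many embryos or cultures stand behind an array.

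Tbk1 and Ikbke encode a related pair of kinases that phosphorylate the transcription factor Irf3 when cytosolic nucleic acid is sensed. Active Irf3 switches on interferon beta, and secreted interferon then switches on a large set of antiviral genes through Jak kinases and Stat factors. Sensing of cytosolic DNA can also activate NF-kB, a factor held in the cytoplasm by inhibitors such as Nfkbia, which drives chemokines, adhesion molecules and its own inhibitors. Fibroblasts also adjust glycolysis and glucose uptake through the hypoxia-inducible factor, whose targets include glucose transporters and glycolytic enzymes. The series asked how the B-DNA response depends on the Tbk1 and Ikbke genes.

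Promoter sequences of genes picked as examples are shown to make the comparison of motifs concrete. Cxcl1, Cxcl2 and Bnip3 were 2-fold or more apart in the double mutant pair, while Ifit1 and Cxcl10 were not. The sequences are the 250 bases before the annotated start in RefSeq (GRCm38.p6), written in the direction of transcription, with motif matches in capitals. Cxcl1 (chr5:90890995-90891244, plus strand) and Cxcl2 (chr5:90903649-90903898, plus strand) had the highest ratios of the NF-kB targets and hold the NF-kB motif, here GGG, any 2 bases and TTTCC. Ifit1 (chr19:34640639-34640888, plus strand) and Cxcl10 (chr5:92348890-92349139, minus strand), induced by interferon, hold a pattern of the interferon response element, here GAAA, any 2 bases and GAAA. Bnip3 (chr7:138909507-138909756, minus strand), a hypoxia target lower after B-DNA, holds ACGTG, the core of the hypoxia response element.
Cxcl1: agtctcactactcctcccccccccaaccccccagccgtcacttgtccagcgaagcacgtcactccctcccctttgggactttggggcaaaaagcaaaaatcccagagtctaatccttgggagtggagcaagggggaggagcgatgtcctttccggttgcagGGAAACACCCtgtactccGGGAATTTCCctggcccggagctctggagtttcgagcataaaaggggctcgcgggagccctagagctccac
Cxcl2: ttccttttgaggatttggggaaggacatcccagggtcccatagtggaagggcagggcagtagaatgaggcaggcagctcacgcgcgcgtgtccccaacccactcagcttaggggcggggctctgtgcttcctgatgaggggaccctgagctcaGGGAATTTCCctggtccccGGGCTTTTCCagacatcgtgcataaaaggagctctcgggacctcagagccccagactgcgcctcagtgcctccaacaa
Ifit1: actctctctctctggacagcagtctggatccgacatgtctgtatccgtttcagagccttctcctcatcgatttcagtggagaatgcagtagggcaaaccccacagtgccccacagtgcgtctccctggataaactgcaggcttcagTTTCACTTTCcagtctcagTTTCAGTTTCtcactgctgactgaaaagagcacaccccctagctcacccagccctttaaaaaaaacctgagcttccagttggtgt
Cxcl10: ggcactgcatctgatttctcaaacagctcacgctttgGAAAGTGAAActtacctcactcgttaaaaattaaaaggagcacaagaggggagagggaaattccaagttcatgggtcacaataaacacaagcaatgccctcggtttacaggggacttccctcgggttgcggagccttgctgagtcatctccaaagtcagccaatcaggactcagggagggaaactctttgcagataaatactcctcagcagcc
Bnip3: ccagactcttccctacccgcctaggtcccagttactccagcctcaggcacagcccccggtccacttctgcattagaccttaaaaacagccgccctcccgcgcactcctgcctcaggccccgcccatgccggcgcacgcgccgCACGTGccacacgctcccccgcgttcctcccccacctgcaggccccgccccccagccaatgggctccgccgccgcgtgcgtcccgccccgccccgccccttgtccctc

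Both strands were searched. The first base of the matches in Cxcl1 lay 89 and 71 bases before the start, and in Cxcl2 97 and 78 bases before it. In Ifit1 the matches began 104 and 85 bases before the start, and in Cxcl10 the match began 213 bases before it. In Bnip3 the palindromic CACGTG is 1 place read on both strands, starting 108 and 107 bases before the start. Among 32851 promoter entries of this length, the NF-kB motif occurred in 464 (1.41%), the interferon pattern in 978 (2.98%) and ACGTG in 5444 (16.6%). Promoter entries were found for 34 of 43 measured NF-kB targets, and 9 of these 34 held the motif. Of the 7 NF-kB targets called higher 5 had an entry, and Cxcl1 and Cxcl2 were the 2 that held it. Of the interferon-stimulated genes 16 of 40 with an entry held their motif, and of the joined hypoxia and glycolysis genes 31 of 45 did. These list counts are of genes, each counted when any of its entries matched. The shares over all promoters are of entries, so they are not measured alike. A match describes letters in this window and is not a binding site.

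Each value is a MAS5 signal intensity, a linear measure of hybridisation to 1 probe set, multiplied so that each array had a 2% trimmed mean of 500. The arrays needed factors of 1.96 to 3.58, and the double mutant arrays needed 3.58 (mock) and 3.14 (B-DNA). Signals below 122, the 40th percentile of all scaled values, were set to 122, and such values have no measured order. To be called higher or lower, a gene needed a ratio of 2-fold or more and a signal of 244 on the higher array. The 3' to 5' signal ratio of the double mutant arrays was 0.856 and 0.805 for Gapdh and 1.18 and 1.05 for Actb. Tbk1 signal was 290 and 390 in double mutant cells, 226 and 305 in Tbk1-/- cells, 501 and 989 in WT cells and 472 and 910 in Ikbke-/- cells, mock first in each. Ikbke itself lay under 122 on all 8 arrays, so the arrays do not check that deletion. The Y-linked Eif2s3y was 153 and 209 in double mutant cells and 287 and 236 in Ikbke-/- cells, and at most 3.6 in WT and Tbk1-/- cells. Xist was 209 and 181 in double mutant cells against 2950 to 3766 in WT and Tbk1-/- cells, so sex and Ikbke genotype cannot be told apart. All 14 fibroblast markers reached 244 on both double mutant arrays. Of 18 macrophage and leukocyte markers, 2 reached it on the mock array and 1 on the B-DNA array, with summed signals of 1816 and 1828. In such bulk RNA, fewer cells of a type and less RNA per cell cannot be told apart.

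In double mutant cells 52 of 9626 genes were higher after B-DNA (0.54%) and 72 were lower (0.748%). WT cells had 315 higher (3.27%) and 182 lower (1.89%), Tbk1-/- cells 28 higher (0.291%) and 39 lower (0.405%), and Ikbke-/- cells 342 higher (3.55%) and 158 lower (1.64%). Differences in the double mutant pair were small in size: 37 of the 52 higher and 58 of the 72 lower genes were below 2.5-fold, and 10 and 2 reached 3-fold. The mock array of the double mutant was the lowest of the 4 mock arrays for 35 of the 52 higher genes, against 22.8% of all genes, and the highest for 51 of the 72 lower genes, against 41% of all genes. The part of these mock levels in the ratios was not tested. Of the 52 higher genes, 26 had a B-DNA signal above the other 3 mock arrays, against 38.3% of all genes, and of the 72 lower genes 42 had one below them, against 22.5%. The genes were called on the ratio of these same 2 arrays. Low mock and high B-DNA signals among higher genes, and the reverse among lower genes, thus follow in part from the call itself. Of 52 higher genes, 13 were on a pathway list, and of 72 lower genes also 13. The share of all genes on a list was not counted, so no excess or lack can be read from these counts. Without the common scaling, 117 genes were higher and 18 lower, so the higher share of calls moved from 41.9% to 86.7%. That setting moved the ratio of the pair by 0.19 on the log2 scale and the median of all genes by 0.10, and ratios here are relative to the scaled arrays.

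**Figure D1:**
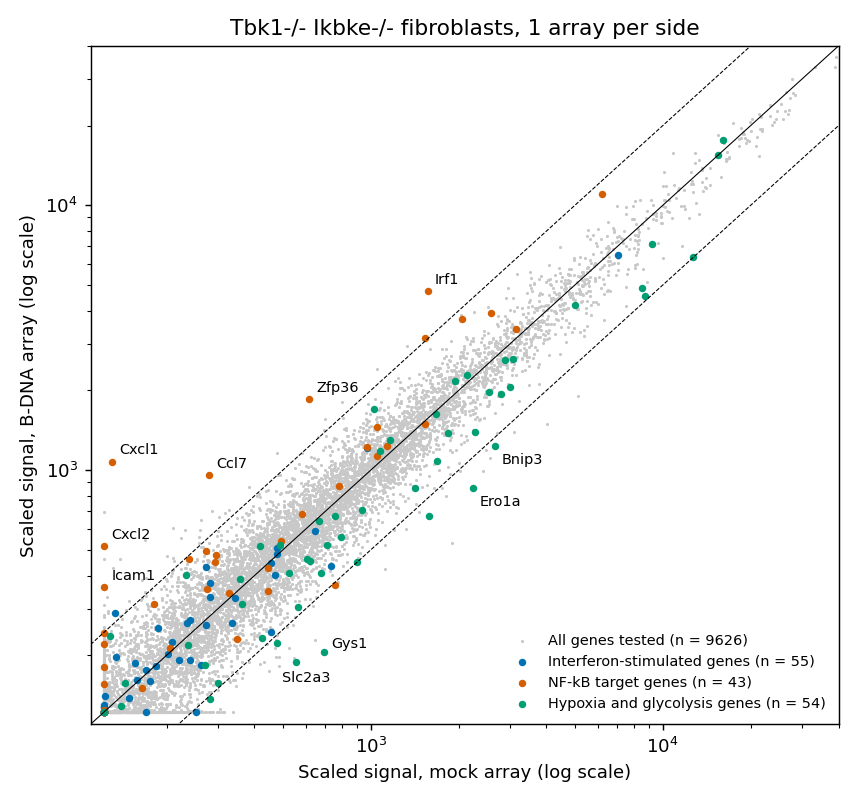
Scaled signal of 9626 genes on the B-DNA array against the mock array of Tbk1-/- Ikbke-/- cells, both axes logarithmic, with values under the floor set to 122. Dashed lines mark 2-fold, and blue, orange and green points mark the 55 interferon-stimulated, 43 NF-kB target and 54 hypoxia or glycolysis genes. Cxcl1, Cxcl2, Ccl7 and Irf1 lie above the upper line and Gys1, Slc2a3, Ero1a and Bnip3 below the lower line.

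Interferon-stimulated genes had few calls in the double mutant pair, 1 gene in each direction. Of 55 measured genes 1 was higher (1.82%) and 1 lower (1.82%), against 0.54% and 0.748% of all genes, the median log2 ratio was 0.00, and 19 lay above 0, 18 below and 18 at 0. The same 55 genes had 51 higher in WT cells (median 3.19) and 52 in Ikbke-/- cells (median 4.09), and none in Tbk1-/- cells (median 0.00). Ifit1, an antiviral RNA-binding protein, had a signal of 149 on the mock array and 138 on the B-DNA array of double mutant cells, against 600.0 and 23925 in WT cells. Ifit3, its partner, had 235 and 265, against 315 and 19679 in WT. Rsad2, an antiviral enzyme that makes a chain-terminating nucleotide, had 158 and 161, against 400.0 and 20460 in WT cells. Mx1, an antiviral GTPase, was under the floor on both double mutant arrays. Ifih1, the cytosolic RNA sensor Mda5, had 156 and 187. In Tbk1-/- cells Ifit1 had 65.1 and 104 and Rsad2 157 and 88.6, so none of these genes was high on any of the 4 arrays without Tbk1.

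The exceptions among the interferon-stimulated genes were Samhd1 and Oasl1. Samhd1, which degrades deoxynucleotides, had 133 and 289 (log2 ratio 1.12), and 2 further probe sets of this gene had log2 ratios of 0.13 and -1.31. Oasl1, an inhibitor of Irf7 translation, had 251 and a B-DNA value under the floor (log2 ratio -1.04), while its ratio was 5.20 in WT cells and 5.65 in Ikbke-/- cells. Irf7, the interferon-inducible factor, had 262 and 185, a log2 ratio of -0.50, and Irf3 had -0.21. Ifnb1 was under the floor on both arrays of the double mutant, with 221 after B-DNA in WT cells and 194 in Ikbke-/- cells. Cxcl10, a lymphocyte-attracting chemokine, was also under the floor on both, against 440 and 16600 in WT cells. Ccl5, another interferon-induced chemokine, had 666 and 545, a log2 ratio of -0.29. None of 16 MHC class I genes, 24 nucleic acid sensing genes or 24 interferon and Jak-Stat genes was called in either direction in the double mutant pair, and at 0.54% and 0.748% of all genes a list of this size would seldom hold a call. In WT cells 11, 9 and 4 of these were higher, against 3.27% of all genes. Sting1, an adaptor in cytosolic DNA sensing, had 258 and 144 (log2 ratio -0.84). Isg15 was not analysed here.

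**Figure D2:**
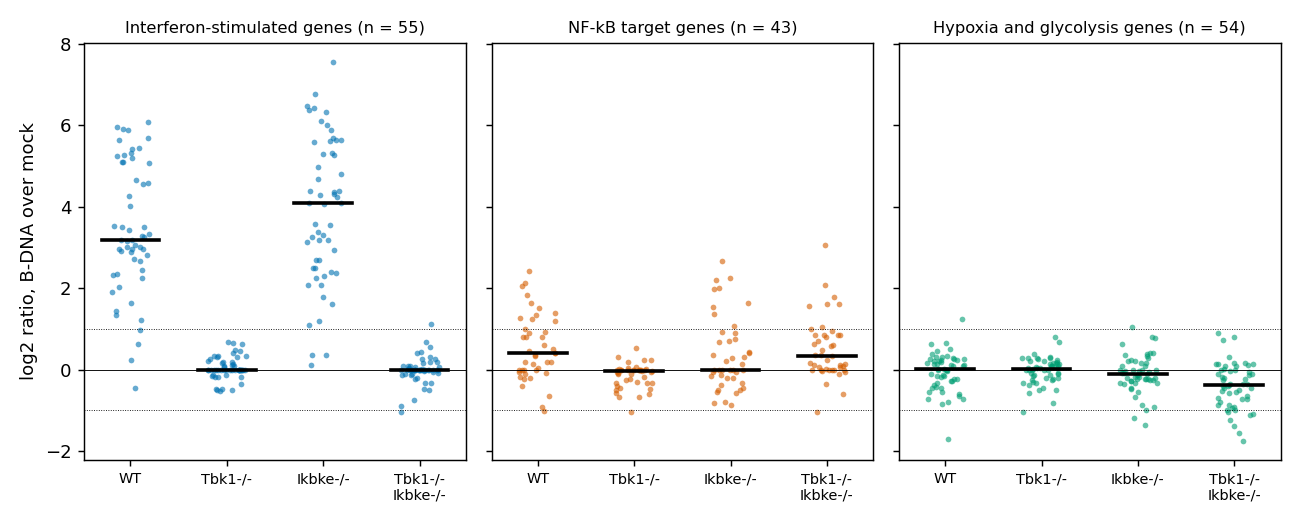
Log2 ratio of B-DNA over mock for each measured member of 3 gene lists, in 4 genotypes with 1 array pair each, with the median as a bar and dotted lines at 2-fold. Interferon-stimulated genes have medians of 3.19 and 4.09 in WT and Ikbke-/- cells and 0.00 in both Tbk1-deficient genotypes, while in the double mutant pair the NF-kB targets have a median of 0.33 and the joined hypoxia and glycolysis genes -0.38.

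A set of NF-kB target genes, mostly chemokines and regulators, had higher signals on the B-DNA array of double mutant cells. Of 43 measured targets 7 were higher (Cxcl1, Cxcl2, Ccl2, Ccl7, Icam1, Irf1 and Zfp36) and 1 was lower (Cebpd), against 0.54% and 0.748% of all genes. The median log2 ratio was 0.33, 31 lay above 0, 6 below and 6 at 0, and 17 of 43 reached 1.5-fold higher, 39.5% against 5% of all genes. In the same 43 genes the median was -0.04 in Tbk1-/- cells with none higher and 1 lower, 0.41 in WT cells with 11 higher and 0.00 in Ikbke-/- cells with 9 higher. The lists of NF-kB targets and chemokines share 6 genes. Of 24 chemokines 4 were higher (Cxcl1, Cxcl2, Ccl2 and Ccl7) and 1 was lower (Cxcl16, log2 ratio -1.09).

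Cxcl1, which attracts neutrophils, had a signal of 131 on the mock and 1078 on the B-DNA array, a log2 ratio of 3.05. Its mock signals were 370 in WT, 311 in Tbk1-/- and 485 in Ikbke-/- cells, and its B-DNA signals 967, 291 and 278. The double mutant thus had the lowest mock signal and the highest B-DNA signal of the 8 arrays. Cxcl2, a close relative, was under the floor on the double mutant mock array and had 516 after B-DNA, at least 4.22-fold higher. Its other values were 303 and 292 in WT, under the floor on both arrays in Tbk1-/- and 301 and 172 in Ikbke-/- cells. Both chemokines had a B-DNA signal above every mock array in this pair. Irf1, a transcription factor induced by interferon and NF-kB, had 1569 and 4743, a log2 ratio of 1.60. Its mock signals elsewhere were 1300, 1005 and 1406 and its B-DNA signals 5653, 1044 and 4379 in WT, Tbk1-/- and Ikbke-/- cells. For Irf1 the mock array of the double mutant was the highest of the 4 mock arrays, and the B-DNA array stood in the range of WT and Ikbke-/- cells.

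The monocyte chemokines behaved differently in level. Ccl7 had 279 and 958 in the double mutant, a log2 ratio of 1.78, with 2408 and 10052 in WT, 733 and 737 in Tbk1-/- and 1377 and 5433 in Ikbke-/- cells. Ccl2 had 1538 and 3161, a log2 ratio of 1.04, with 9264 and 21927 in WT, 4393 and 3096 in Tbk1-/- and 4724 and 13721 in Ikbke-/- cells. For Ccl2 the B-DNA signal stayed under all 3 other mock signals. Icam1, an adhesion molecule for leukocytes, had a mock signal under the floor and 361 after B-DNA, at least 2.96-fold higher, with mock signals of 337, 883 and 987 elsewhere. Zfp36, which promotes decay of cytokine mRNA, had 614 and 1856, a log2 ratio of 1.60, with mock signals of 1384, 2007 and 2532 elsewhere. The double mutant mock array was the lowest of the 4 mock arrays for 23 of the 43 targets, 53.5% against 22.8% of all genes. Of the 43, 12 had a B-DNA signal above the other 3 mock arrays, 27.9% against 38.3% of all genes.

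Examples of targets that were not called are given with their values. Nfkbia, the inhibitor of NF-kB, had 6199 and 11073, a log2 ratio of 0.84. Tnfaip3, a ubiquitin-editing brake, had 181 and 313 (0.79), and Birc3, an anti-apoptotic ubiquitin ligase, 274 and 497 (0.86). Peli1, a ubiquitin ligase, had 239 and 460 (0.95) and Csf1, a macrophage growth factor, 2052 and 3718 (0.86). Nfkbia and Csf1 had mock signals of 8979 to 12408 and 6149 to 9586 in the other 3 genotypes, above the double mutant mock signals. Subunits and kinases of the pathway had no member at 2-fold among 19, a median log2 ratio of 0.17, and 15 of 19 above 0. Rela, the main activating subunit, had 1602 and 2137 (0.42), Nfkb2 583 and 685 (0.23) and Relb 328 and 345 (0.07). Other targets had smaller ratios. Vcam1, an adhesion molecule, had 3144 and 3401 (log2 ratio 0.11), while WT cells had 2963 and 8523. Ptgs2, the inducible prostaglandin synthase, had 444 and 427 (-0.06) with 1785 to 8773 on the other 6 arrays. Il6, an inflammatory cytokine, had a mock signal under the floor and 155 after B-DNA. Nfkb1 was not analysed here.

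**Figure D3:**
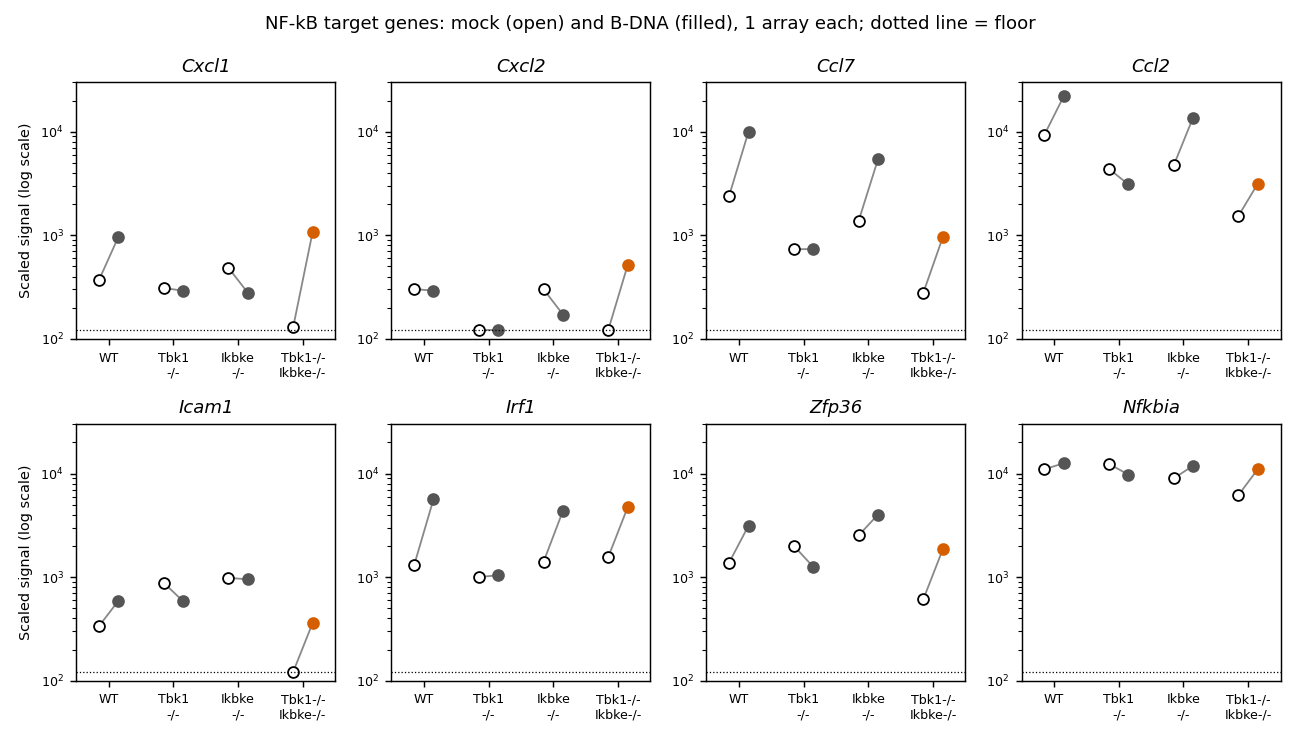
Scaled signal of 8 NF-kB target genes on the mock (open) and B-DNA (filled) array of each genotype, on a log axis with the floor of 122 dotted and lower values set to it. The B-DNA signal of Cxcl1 is 1078 in the double mutant (orange) and 967 in WT cells, and Ccl2 reaches 3161 in the double mutant, below its 3 other mock signals.

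Immediate early genes, which encode factors switched on within minutes of a stimulus, had 4 calls in the pair. Of 39 measured, 3 were higher (Atf3, Myc and Zfp36, 7.69% against 0.54% of all genes) and 1 was lower (Id1, 2.56% against 0.748%), with a median log2 ratio of 0.04. Of the 39, 23.1% were 1.5-fold or more higher, against 5% of all genes. The median was -0.46 in Tbk1-/- cells, with 5 lower and 0 higher, and -0.23 in WT cells, with 5 lower and 2 higher. In Ikbke-/- cells it was -0.01, with 3 lower and 1 higher. Of all genes 0.405%, 1.89% and 1.64% were lower in these genotypes, in that order. Atf3, a stress-induced factor, had 231 and 596 (log2 ratio 1.37), and Myc, a growth factor-induced transcription factor, 211 and 454 (1.10). Egr1, Jun and Fos had log2 ratios of 0.72, 0.61 and 0.28. The double mutant mock array was the lowest of the 4 mock arrays for 33 of the 39 genes, 84.6% against 22.8% of all genes. The B-DNA array of the double mutant was below all 3 other mock arrays for 29 of them and above all 3 for none. A B-DNA signal of 454 for Myc compares with mock signals of 1364 to 2514 elsewhere.

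Genes of the hypoxia response and of glycolysis included several with lower signals on the B-DNA array of double mutant cells, among them glucose transporters, glycogen synthase and mitochondrial genes. Of 32 measured hypoxia genes 6 were lower (Bnip3, Egln3, Ndrg1, Ero1a, Slc2a3 and Ak4) and none higher, against 0.748% of all genes lower. In each of the other 3 genotypes 1 of the 32 was lower, against 1.89% (WT), 0.405% (Tbk1-/-) and 1.64% (Ikbke-/-) of all genes. At most 1 was higher there, against 3.27%, 0.291% and 3.55% of all genes in the same order. Of 27 glycolysis genes 2 were lower (Slc2a3 and Gys1) and none higher. Both lists share 5 genes, and joined they held 54 measured genes, 7 lower, 39 with a ratio below 0 and a median log2 ratio of -0.38. In the same 54 genes the median was 0.01 in WT, 0.03 in Tbk1-/- and -0.12 in Ikbke-/- cells. Of the glycolysis genes 9 of 27 were 1.5-fold or more lower, 33.3% against 5.6% of all genes, and of the hypoxia genes 11 of 32 were, 34.4%. Without the common scaling the medians were -0.24 and -0.10, and 3 hypoxia genes were lower.

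Slc2a3, a glucose transporter, had 556 on the mock and 188 on the B-DNA array, a log2 ratio of -1.56, with signals of 76.9 to 171 on the other 6 arrays. A second probe set of this gene gave -1.23. Gys1, which makes glycogen, had 694 and 207 (log2 ratio -1.75), with 293 to 540 on the other 6 arrays. A further Gys1 probe set gave -0.70. Bnip3, a mitochondrial hypoxia target, had 2657 and 1234 (-1.11), with 757 to 1105 elsewhere. The mock signals of Slc2a3, Gys1 and Bnip3 stood above all 6 arrays of the other genotypes. Egln3, an oxygen-sensing hydroxylase, had 478 and 223 (-1.10), and at most 169 elsewhere. Ero1a, which forms disulphide bonds in the endoplasmic reticulum, had 2237 and 860 (-1.38), with 1225 to 1699 elsewhere. The Ero1a B-DNA signal was the lowest of the 8 arrays, and further probe sets of this gene gave -0.83 and -0.64. A further Egln3 probe set gave -1.15. With the mean of all probe sets of a gene, Slc2a3 (-0.91) and Ero1a (-0.95) fell under 2-fold. In that setting Gys1 (-1.23), Bnip3 (-1.11) and Egln3 (-1.12) did not.

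Ndrg1, a stress and hypoxia-induced gene, had 1586 and 671 (log2 ratio -1.24), with 960 and 707 in WT, 6215 and 3016 in Tbk1-/- and 2117 and 1693 in Ikbke-/- cells. It was the only gene called in the same direction in both Tbk1-deficient pairs, by the probe set used. Its further probe sets gave -0.36, -1.13, -0.77 and -0.01 in the double mutant pair. The mean of all its probe sets gave -0.70 there, under 2-fold. Ak4, a mitochondrial adenylate kinase, had 281 and 136 (-1.05), with 487 to 681 on the other 6 arrays. A further Ak4 probe set gave -1.04, and the mean of all its probe sets gave -0.52. Several glycolytic enzymes reached less than 2-fold. Pgk1 had 12675 and 6407 (-0.98) against 9898 to 13636 elsewhere, and Ldha 8709 and 4542 (-0.94) against 5894 to 9127. For both the double mutant B-DNA array was the lowest of the 8. Tpi1 had 8495 and 4877 (-0.80), and the transporter Slc2a1 had 896 and 449, 1.99-fold lower and just short of a call. A few members pointed the other way, with Pfkfb3, a regulator of glycolysis, at 0.89, Eno2 at 0.79, Bhlhe40, a hypoxia-induced repressor, at 0.73 and Vegfa, the blood vessel growth factor, at 0.32. The double mutant mock array was the highest of the 4 mock arrays for 14 of 27 glycolysis genes (51.9%) and 13 of 32 hypoxia genes (40.6%), against 41% of all genes.

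**Figure D4:**
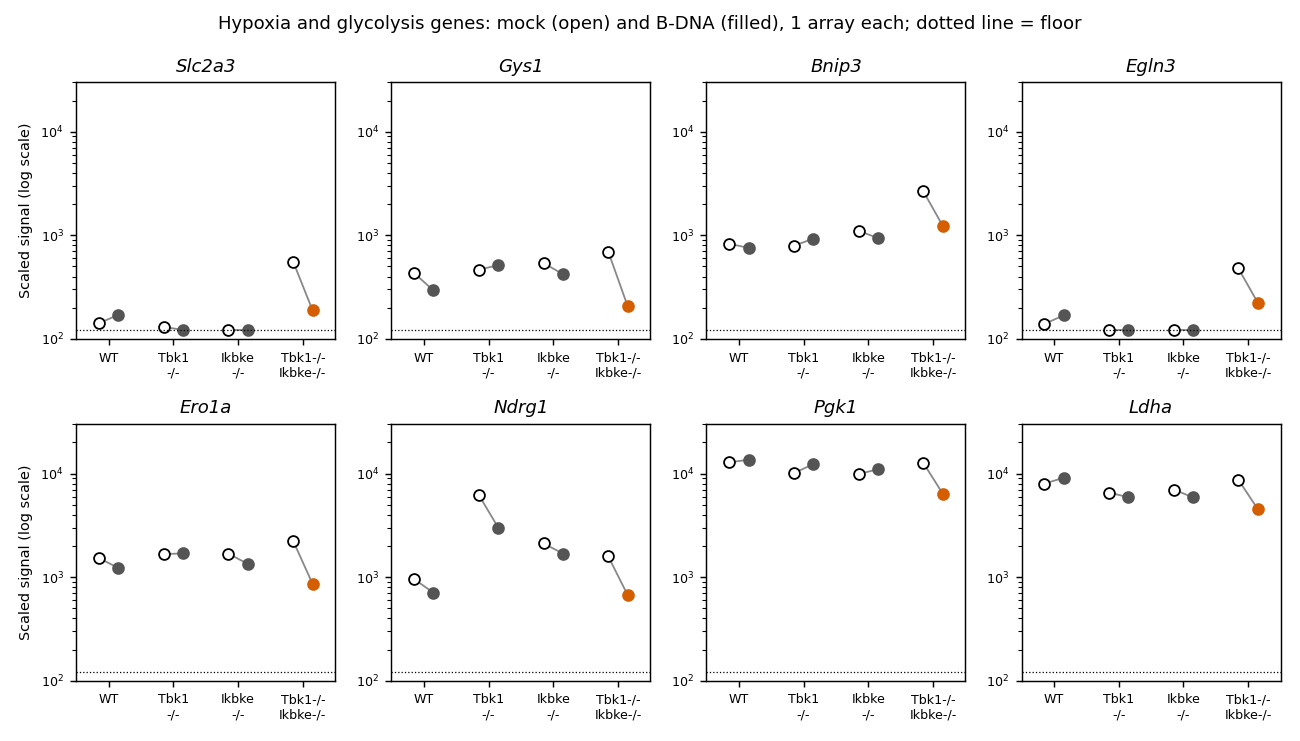
Scaled signal of 8 hypoxia or glycolysis genes on the mock (open) and B-DNA (filled) array of each genotype, on a log axis with the floor of 122 dotted and lower values set to it. The double mutant pair (orange for B-DNA) is lower after B-DNA for all 8, with Gys1 going from 694 to 207 and Pgk1 from 12675 to 6407.

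Of the 52 higher and 72 lower genes, 39 and 59 were on no pathway list, with no share over all genes to compare. The genes named next were picked by ratio and not all are unlisted, since Mfap4 is on the extracellular matrix list. Among the highest, Serf1 had a log2 ratio of 2.51 with a mock signal under the floor, but 2 further probe sets gave -1.32 and -0.94. Nme6, a nucleoside kinase family member, had 462 after B-DNA and a mock signal under the floor. Mfap4, an extracellular matrix protein, had 138 and 463 (1.75), Zmat5 131 and 428 (1.71) and Rrad, a Ras-related GTPase, 168 and 547 (1.70). Fzd6, a Wnt receptor, had 210 and 605 (1.52), and Cyp2b10, a cytochrome P450, 126 and 333 (1.41). Map6, a microtubule protein, was at 1.34 with a mock signal under the floor. All 8 of these genes had a double mutant mock signal below 244. Among the lowest, Acaa1a, a peroxisomal thiolase, had 1896 and 532 (-1.83), with signals of 578 to 1020 on the other 6 arrays. Sema7a, a membrane-bound semaphorin, had 646 and 229 (-1.50) and was also lower in Ikbke-/- cells, at -1.54. Hspe1, the mitochondrial co-chaperonin, had 5114 and 1909 (-1.42), and a further probe set gave -0.08. Fxr2, Tfeb, Snap47, Timmdc1 and Supt20 had ratios of -1.48, -1.47, -1.42, -1.41 and -1.41. A further Snap47 probe set gave 0.06 and a further Supt20 probe set -0.35. Pemt, Gfra3, Il1f10 and Rrp9 stood at -1.36, -1.36, -1.34 and -1.31. For Tfeb, Pemt, Il1f10 and Rrp9 the B-DNA signal was under the floor, so these ratios are bounds.

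The pairs of the 4 genotypes have no array in common. Of the 52 higher genes 8 were higher elsewhere, Ccl2, Ccl7, Irf1, Irf5 and Samhd1 in WT and Ikbke-/- cells and Cxcl1, Ptx3 and Zfp36 in WT cells. They made up 15.4% of the double mutant list, against 3.27% of all genes called higher in WT cells, and 2.54% of the WT list. In Ikbke-/- cells 5 of the 52 were higher (9.62%, against 3.55% of all genes). Irf5, a factor acting downstream of Toll-like receptors, had 176 and 353, and Ptx3, a secreted pattern-recognition protein, had 1333 and 2944 (log2 ratio 1.14). None of the 52 was called higher in Tbk1-/- cells, where 0.291% of all genes were. In the opposite direction, 5 of the 52 were called lower in Ikbke-/- cells (9.62%, against 1.64% of all genes). In Tbk1-/- cells 1 of the 52 was lower, against 0.405% of all genes, and in WT cells 0, against 1.89%. Of the 72 lower genes 8 were lower elsewhere. They were Csnk1g2, Fxr2, Gfra3 and Sipa1l2 in WT cells, Il1r1 in WT and Ikbke-/- cells, Sema7a and Zdhhc12 in Ikbke-/- cells and Ndrg1 in Tbk1-/- cells. In WT cells 5 of the 72 were lower (6.94%, against 1.89% of all genes). In Ikbke-/- cells 3 were (4.17%, against 1.64%) and in Tbk1-/- cells 1 was (1.39%, against 0.405%). Il1r1, the interleukin 1 receptor, had 383 and 188 in the double mutant (log2 ratio -1.03). As many of the 72, 5, were called the opposite way in WT cells (6.94%, against 3.27% of all genes called higher there). In Ikbke-/- cells 2 of the 72 were called higher, against 3.55% of all genes.

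Genes measured by several probe sets give a check within the same array pair. Of the called genes, 24 had 34 further probe sets that reached 244, and 5 of the 34 showed 2-fold or more in the same direction (14.7%) and 23 the same sign (67.6%). In WT cells 63.9% of 169 further probe sets showed 2-fold or more and 94.7% the same sign, in Ikbke-/- cells 62.2% and 96.7% of 180, and in Tbk1-/- cells 31.6% and 84.2% of 19. Within the double mutant pair, all 10 further probe sets of 6 hypoxia and glycolysis genes had the same sign, 1 of Ndrg1 with only -0.01, and 4 of 10 reached 2-fold. Among 18 other genes 13 of 24 probe sets had the same sign (54.2%) and 1 reached 2-fold. Probe sets of the same gene are not independent of each other. None of the 7 higher NF-kB targets had a further probe set reaching 244, so this check does not cover them.

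**Figure D5:**
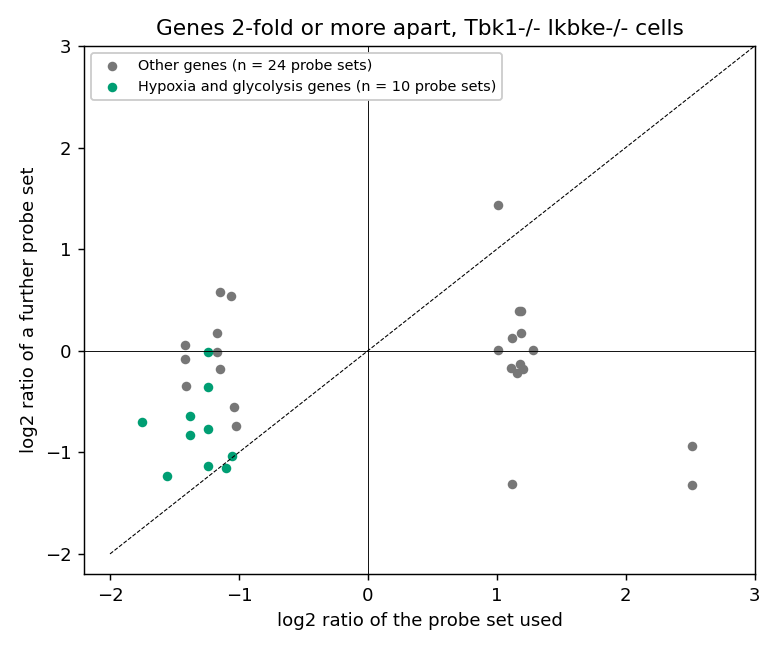
Log2 ratio of a further probe set against that of the probe set used, for called genes of the double mutant pair, with a dashed line at equality. The 10 probe sets of hypoxia and glycolysis genes (green) lie at or below 0 with their gene, while of the 24 others (grey) 13 share its sign.

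The double mutant pair was set against the other genotypes with limma, fitted on all 9626 genes with genotype as a block. No gene had a ratio that differed from those of the other 3 genotypes at a Benjamini-Hochberg threshold of 0.05 (0% of genes), with 1037 genes at an unadjusted p under 0.05 (10.8%) and a lowest adjusted p of 0.398. The error of that fit is the spread of the ratios over WT, Tbk1-/- and Ikbke-/- cells, so a gene that responds in only some of these has a large error, and a gene at the floor in all of them a small one. Oasl1, for example, had ratios of 5.20, -0.48 and 5.65 in these genotypes. Of the 1037 genes, 129 were at the floor on all 6 other arrays. The genes with the lowest p in that fit included Rrad, Smad7 and Supt20, all with an adjusted p of 0.398. Rrad had a difference of 1.70 on the log2 scale (SE 0.08) that rests on the floor, since its signals on the other 6 arrays were 18.4 to 123. Smad7, an inhibitor of transforming growth factor signalling, had 1.68 (SE 0.09), and Supt20 -1.48 (SE 0.10). Smad7 signals were 285 and 702 in the double mutant, with higher mock signals of 1261, 1862 and 856 in WT, Tbk1-/- and Ikbke-/- cells. The mean ratio of both Tbk1-deficient genotypes also passed for no gene (0%), with 628 unadjusted (6.52%) and a lowest adjusted p of 0.741. Ndrg1, as measured by the probe set used, had the lowest p in that fit, a mean of -1.14 (SE 0.12) with an adjusted p of 0.741. With 2 residual degrees of freedom, a gene that misses the threshold is not shown to respond alike. Across 6665 genes above the floor on all arrays, the ratios of the double mutant pair correlated with those of WT cells at -0.03, of Tbk1-/- cells at 0.09 and of Ikbke-/- cells at -0.03, as a description over genes that are not independent. The SD of the log2 ratio in the double mutant pair was 0.40 for signals of 122 to 500, 0.33 up to 2000 and 0.29 above.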

How the data were processed

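Total RNA of 8 arrays was labelled and hybridised to 1-colour Affymetrix arrays, 1 array for each of 4 genotypes and 2 treatments. The authors deposited linear signal intensity for each probe set from Microarray Suite 5.0 (MAS5), per the labels and the design text. How they scaled the arrays is not given in the sources used here. The array named in the design text is not the one to which the probe set names belong, and gene names came from the annotation that matched them.

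Of 22690 probe sets, 64 controls were left out. Each array was multiplied to a 2% trimmed mean of 500. Of 22626 probe sets 20380 had 1 gene symbol, 691 several and 1555 none. Symbols were updated to GRCm38.p6 RefSeq (20351 matched). Each of 12393 genes was represented by its brightest probe set on average, and 9626 reached the floor of 122 on 1 or more arrays. Calls needed 2-fold and a higher signal of 244. Limma 3.58.1 in R 4.3.3 (lmFit, eBayes, 2-sided, Benjamini-Hochberg 0.05) used all 8 arrays with genotype as a block, so its p-values rest on the spread of ratios between genotypes, which holds both genotype effects and technical spread. Both fits were run on simulated data with normal noise and effects added only to genes well above the floor. Those runs do not cover effects in genes near the floor or responses that differ among the other genotypes.

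Named genes were the 15 highest and 15 lowest ratios among called genes, called members of the gene lists, up to 8 genes per sign with the lowest p in each fit, genes called alike in both Tbk1-deficient pairs, and a fixed set of interferon, NF-kB and immediate early genes. Pathway members that were not called were named as examples after their values were seen. The pair, the gene lists and the tests were chosen with earlier results of these data known. Alternatives covered scaling, floor, probe set choice, call rules, filters, the variance prior and leaving out a genotype.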

Additional observations from a re-analysis of the deposited data

Results flagged for a closer look

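Several genes were 2-fold or more apart in opposite directions in the double mutant pair and in another genotype, with 1 array per side, so these differences were not tested. Oasl1 had a log2 ratio of -1.04 in double mutant cells against 5.20 in WT and 5.65 in Ikbke-/- cells. Atf3 stood at 1.37 against -1.09 in Tbk1-/- cells. Against WT cells, Arhgap27 had -1.09 and 1.06, Gpatch1 -1.19 and 1.10, Hic2 -1.08 and 1.30, and Lrrc18 -1.15 and 1.36, double mutant first in each. Against Ikbke-/- cells, Atp2a3 had 1.15 and -1.46, Atpaf2 1.06 and -1.45, Gfra3 -1.36 and 1.06, Map6 1.34 and -1.35, Psmg2 1.17 and -1.59, and Serf1 2.51 and -1.06. In the double mutant pair the mock signals of Atpaf2, Map6 and Serf1 and the B-DNA signals of Hic2, Lrrc18 and Oasl1 were under the floor. Further Serf1 probe sets gave -1.32 and -0.94 there, and a further Psmg2 probe set 0.39. Probe sets without a single gene symbol, which entered no comparison, included 11 that were 2-fold or more higher and 12 that were lower in double mutant cells, of 1305 that reached the floor.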

How the results depend on the processing

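The labels carry no replicate numbers, and both limma fits took genotype as a block, which pairs the mock and B-DNA arrays of a genotype. With the arrays not scaled further, 117 genes were higher and 18 lower in the double mutant pair, with 0 interferon-stimulated genes higher, 11 NF-kB targets higher and 3 hypoxia genes lower. A floor at the 25th percentile gave 185 higher and 255 lower, with 3 interferon-stimulated genes and 11 NF-kB targets higher. A floor at the 60th percentile gave 22 higher and 23 lower, with 0 interferon-stimulated genes higher, 3 hypoxia genes lower and 1 glycolysis gene lower. The mean of all probe sets of a gene gave 33 higher with 0 interferon-stimulated genes, and Samhd1 turned to -0.14. Requiring 3-fold left 10 higher and 2 lower, with 0 interferon-stimulated genes higher, 0 hypoxia genes lower and 1 glycolysis gene lower, a list setting chosen after seeing the data. Scaling to the median gave 60 and 52 and quantile normalization 64 and 72. The medians of the 4 lists kept their sign in all settings run, the interferon-stimulated genes staying at 0.00. Of 198 values of named genes under these settings, 182 moved by at most 1.5-fold, 15 by more and 1 turned sign. Of 144 such values of called genes, 24 fell under 2-fold, 13 of them within that tolerance. The limma comparison of the double mutant with the other 3 genotypes gave 291 genes when genes at the floor on all arrays entered, and 0 in every other setting run. All 291 were also tested with the filter, and 236 of them lay at the floor on all 6 arrays of the other genotypes. The mean of both Tbk1-deficient genotypes gave 0 in every setting, and leaving out 1 genotype gave 0 to 0. The causes of the shifts were not tested. Signals near the floor limit low genes, for which 10 of 52 higher and 21 of 72 lower ratios were bounded by it.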

Other observations

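Other gene lists had few calls in the double mutant pair, where 0.54% of all genes were higher and 0.748% lower. Of 23 cholesterol genes none reached 2-fold and the median log2 ratio was -0.08, against -0.64 in Tbk1-/-, -0.54 in Ikbke-/- and -0.26 in WT cells, and the difference between genotypes was not tested. Of 47 cell cycle genes 1 was higher (Mcm2, with 698 and 1558, while a further probe set gave -0.22), and the double mutant mock array was the highest of the 4 mock arrays for 34 of them (72.3%, against 41% of all genes). The B-DNA signal of the cell cycle genes was above the other 3 mock arrays for 80.9%, against 38.3% of all genes, and 14.9% were 1.5-fold or more higher, against 5%. None of 34 cell death genes and 30 p53 targets was called, and 13.3% of the p53 targets were 1.5-fold or more higher. Of 44 extracellular matrix genes 1 was higher (Mfap4). Idh1, a cytosolic isocitrate dehydrogenase, had 2489 and 1197 (log2 ratio -1.06), while a further probe set gave 0.54.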
